A study of Homo sapiens with 3 samples.

Results

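The YTH domain readers are the proteins that recognise N6-methyladenosine (m6A), the methyl mark that METTL3 and its partners place on mRNA. The human genome encodes 5 of them, YTHDF1, YTHDF2, YTHDF3, YTHDC1 and YTHDC2, and each was found by its gene name as 1 row on a main chromosome sequence of the tables, so that 5 of 39320 gene rows are described here. The study concerns splice variants of METTL3 in hepatocellular carcinoma, and the RNA-seq analysed here comprises 3 libraries of polyA RNA labelled as replicates of HepG2, an established line of human liver cancer cells, of wild-type genotype, with no treatment and no second condition. The labels do not say whether the 3 libraries came from separate cultures. The SD therefore measures only the spread between these libraries, which may be technical. The p-values rest on the same 3 libraries and are not a measure of that spread. The question that the data can answer is how much RNA of each reader these cells held, and in which proportion.

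Binding of m6A takes place in the YTH domain, in which aromatic side chains form a cage around the methylated base. YTHDC1 is the nuclear reader and acts on splicing and on export of methylated mRNA. The YTHDF proteins are cytoplasmic paralogs, of which YTHDF2 is best known for bringing methylated mRNA to the CCR4-NOT deadenylase and so to decay, while YTHDF1 and YTHDF3 have been linked to translation as well as to decay. YTHDC2 is a large RNA helicase with a YTH domain, best known for its role in meiosis, and its place in the cell is less settled, so it was kept apart from both groups.

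In the reference sequence, the first tryptophan aligned in all 5 proteins lies at residue 411 of YTHDF1, 432 of YTHDF2, 438 of YTHDF3, 377 of YTHDC1 and 1310 of YTHDC2. This residue is a wall of the m6A cage, and its codon is shown in capitals within the 33 coding bases around it, to show what the readers have in common. The window lies at chr20:63202692-63202724 on the minus strand in exon 4 of 5 for YTHDF1, at chr1:28743549-28743581 on the plus strand in exon 4 of 5 for YTHDF2, and at chr5:113591128-113591160 on the plus strand in exon 27 of 30 for YTHDC2. For YTHDC1 it spans an exon junction, with its ends at chr4:68330287-68332111 on the minus strand. All positions are in GRCh38 and the exons are those of the MANE transcripts in GENCODE v44.
YTHDF1: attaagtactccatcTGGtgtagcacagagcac
YTHDF2: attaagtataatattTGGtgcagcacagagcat
YTHDC1: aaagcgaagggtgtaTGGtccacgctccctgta
YTHDC2: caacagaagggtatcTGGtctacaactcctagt

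In this window YTHDF2 shared 26 and YTHDF3 28 of the 33 bases with YTHDF1, while YTHDC2 shared 14 and YTHDC1 shared 9. Over the whole proteins, the YTHDF paralogs were again closest to each other. The YTHDF proteins have 559, 579 and 585 residues, and their identity over a global alignment was 65.0% between YTHDF1 and YTHDF2, 68.5% between YTHDF1 and YTHDF3 and 66.8% between YTHDF2 and YTHDF3. YTHDC1 has 727 residues and YTHDC2 has 1430. Over a global alignment, YTHDC1 and YTHDC2 were 13.1% identical, about as low as YTHDC1 (14.9%) and YTHDC2 (11.6%) with YTHDF1. Local alignments, which cover only a part of each protein, gave higher values. The best one between YTHDC1 and YTHDC2 covered residues 313 to 492 of YTHDC1 and 1246 to 1418 of YTHDC2, with 43.9% identity. The best local alignment with YTHDF1 had 30.6% identity for YTHDC1 and 34.3% for YTHDC2.

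Because the paralogs are alike in protein, the bases that they share in RNA were measured, since reads from a shared stretch could be assigned to either gene. The longest run shared by YTHDF1 and YTHDF2 was 20 bases. It is shown in capitals with 20 bases on each side, at chr20:63202718-63202777 (minus strand, exon 4) for YTHDF1 and at chr1:28743496-28743555 (plus strand, exon 4) for YTHDF2. The 60 bases differ at 9 positions.
YTHDF1: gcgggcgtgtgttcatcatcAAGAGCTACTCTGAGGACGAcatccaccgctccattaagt
YTHDF2: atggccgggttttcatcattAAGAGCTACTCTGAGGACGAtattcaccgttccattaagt

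The longest run between YTHDF3 and either paralog was 17 bases. None of the 150-base windows, the length of the reads, in the MANE transcripts of YTHDF1, YTHDF3, YTHDC1 and YTHDC2 occurred in a transcript of another gene in GENCODE v44, and none of their 50-base windows did. In YTHDF2, 59 of 2595 windows of 150 bases, or 2.27%, occurred in a transcript of another gene. All 59 came from ENSG00000289291, a long noncoding RNA on the minus strand that overlaps the 5′ end of YTHDF2. Of its 50-base windows, 352 were also found in the processed pseudogene YTHDF2P1, which held none of 150 bases. The strand setting of the authors' counting is not given in the sources used here. Within the stretch that these 59 windows cover, reads from YTHDF2 and this antisense RNA can therefore not be told apart.

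The authors deposited 3 values per gene and library. TPM, a relative transcript abundance, is scaled for transcript length and to the same total in each library, FPKM is proportional to it within a library, and coverage is the mean read depth over the gene, which is not scaled for library size. Since no counts are given, read depth is unknown, and neither intervals nor detection limits were computed. As a relative measure of depth, coverage per FPKM at its maximum over genes above 1 FPKM was 1.16 (replicate 1) and 1.12 (replicate 2) relative to replicate 3. The label was set against 15 genes for proteins that hepatocytes secrete. Only RBP4 and VTN reached 1 TPM in any library. The other 13 stayed below it throughout, and 9 of them were at 0 in every table, including the albumin gene ALB and the fibrinogen genes FGA, FGB and FGG. The summed TPM of the list was between 33.6 and 35.4. The markers of the labelled cell type were thus largely absent, and the values below hold for the libraries labelled HepG2.

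All 5 readers were expressed, and the highest, YTHDF1, had 3.28 ± 0.083 times the TPM of the lowest, YTHDC2 (SD, n = 3). YTHDF1 and YTHDF2 were highest, YTHDC1 and YTHDF3 lay in the middle and YTHDC2 was lowest. Each reader reached 10 TPM or more in every library, which also held for 59.2% of the 13753 genes whose mean was 1 TPM or more.

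YTHDF1, the paralog first linked to translation, had 72.9, 63.5 and 63.3 TPM in replicates 1, 2 and 3, a mean of 66.6 ± 5.51 TPM (SD, n = 3). Replicate 1 stood above the other two, which were nearly equal. The gene spans 63195429 to 63216131 of chromosome 20 (minus strand). YTHDF1 ranked 2281st of the 13753 genes by mean TPM and exceeded 83.4% of them.

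YTHDF2, the decay reader, had 64.4, 60.3 and 60.5 TPM in replicates 1, 2 and 3, a mean of 61.7 ± 2.31 TPM (SD, n = 3). It varied less than YTHDF1, and its highest library overlapped the lower libraries of YTHDF1. It lies on the plus strand of chromosome 1 from 28736621 to 28769775 and exceeded 82.3% of the genes.

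YTHDF3, the third cytoplasmic paralog, had 39.2, 34.0 and 33.0 TPM in replicates 1, 2 and 3, a mean of 35.4 ± 3.35 TPM (SD, n = 3). All 3 libraries were below all those of YTHDF1 and YTHDF2. It lies on the plus strand of chromosome 8 from 63168553 to 63212788 and exceeded 71.0% of the genes. The row YTHDF3-AS1, on the other strand, ends 110 bp before it. It was at 0 in replicates 1 and 2 and at 2.91 TPM in replicate 3. No row overlapped any reader.

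YTHDC1, the nuclear reader, had 38.7, 40.5 and 41.6 TPM in replicates 1, 2 and 3, a mean of 40.3 ± 1.44 TPM (SD, n = 3). Here replicate 1 was the lowest. The gene spans 68310387 to 68350117 of chromosome 4 (minus strand) and exceeded 74.0% of the genes. A second row of YTHDC1, on an alternate reference of chromosome 4, was listed at 0 in all 3 libraries and is not among the members.

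YTHDC2, the helicase, had 22.0, 19.9 and 19.0 TPM in replicates 1, 2 and 3, a mean of 20.3 ± 1.52 TPM (SD, n = 3). Every library was below the libraries of the other readers. It lies on the plus strand of chromosome 5 from 113513662 to 113595287 and exceeded 57.3% of the genes, against a median of 15.4 TPM over all 13753.

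**Figure D1:**
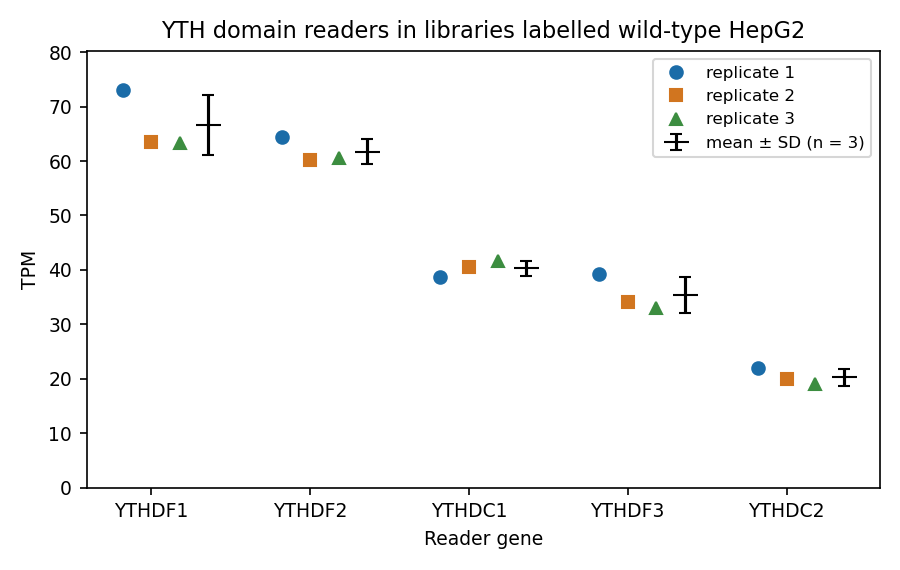
TPM (vertical axis, from 0) of the 5 readers, ordered by their mean, in the libraries labelled HepG2; each symbol is 1 library and the black bar is the mean ± SD (n = 3). YTHDF1 and YTHDF2 overlap between 63.3 and 64.4 TPM, YTHDC1 and YTHDF3 overlap between 38.7 and 39.2 TPM, and YTHDC2 lies apart at 19.0 to 22.0 TPM.

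The order of the levels was tested within each library, as the difference of log2(TPM + 1), for all 10 pairs of readers. With 3 libraries, an exact permutation test that flips signs (two-sided) cannot give a p below 0.25, so no pair could pass a threshold of 0.05. In 9 of 10 pairs the same reader was higher in 3 of 3 libraries, and each of these had p = 0.25 by the exact test, or 0.28 after Benjamini-Hochberg adjustment over 10 pairs. In 8 pairs the TPM ranges did not overlap. YTHDF1 exceeded YTHDC2 by 1.66 ± 0.04 and YTHDF3 by 0.89 ± 0.02 on the log2(TPM + 1) scale (SD, n = 3). YTHDF2 exceeded YTHDC1 by 0.60 ± 0.10, and YTHDF3 exceeded YTHDC2 by 0.77 ± 0.03 (SD, n = 3).

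In the other 2 pairs the ranges overlapped. YTHDF1 was above YTHDF2 by 0.18, 0.07 and 0.06 in replicates 1, 2 and 3 on the log2(TPM + 1) scale, a fold of 1.08 ± 0.048 in TPM (SD, n = 3). The difference of YTHDC1 from YTHDF3 on this scale was -0.02 in replicate 1, where YTHDC1 was lower, and 0.24 and 0.33 in replicates 2 and 3, where it was higher. The mean ratio was 0.18 ± 0.18 (SD, n = 3), about as large as its SD, and its sign differed between libraries. The exact test gave p = 0.5, but with 3 libraries it cannot decide whether any pair differs. Without replicate 1, the ratio of YTHDC1 to YTHDF3 was 0.29 and that of YTHDF1 to YTHDF2 was 0.07.

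The nuclear reader was then set against the cytoplasmic readers. YTHDC1 was below the mean of YTHDF1, YTHDF2 and YTHDF3 in 3 of 3 libraries, with log2 ratios of -0.54, -0.32 and -0.27 in replicates 1, 2 and 3 and a mean of -0.38 ± 0.15 (SD, n = 3). The same exact permutation test gave p = 0.25, the smallest p that 3 libraries allow. The 3 YTHDF genes together had 177, 158 and 157 TPM in replicates 1, 2 and 3, which was 4.56, 3.89 and 3.77 times the TPM of YTHDC1. When YTHDC2 was counted among the cytoplasmic readers, the mean log2 ratio of nuclear to cytoplasmic readers was -0.04 ± 0.15 (SD, n = 3), below 0 in replicate 1 and above 0 in the other two. When it was counted as nuclear the ratio was -0.85 ± 0.07 (SD, n = 3). The size of this difference therefore rested on where YTHDC2 was placed.

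Of the summed TPM of all 5 readers, which was 237, 218 and 217 in replicates 1, 2 and 3, YTHDF1 made up 29.7 ± 0.944% and YTHDF2 27.5 ± 0.357% (SD, n = 3). YTHDC1 made up 16.3%, 18.6% and 19.1% in replicates 1, 2 and 3, and YTHDF3 made up 16.5%, 15.6% and 15.2%. The rest, 9.05 ± 0.273% (SD, n = 3), was YTHDC2.

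FPKM gave the same order as TPM, with means of 31.7 ± 2.37 for YTHDF1, 29.4 ± 0.873 for YTHDF2, 19.2 ± 0.833 for YTHDC1, 16.9 ± 1.46 for YTHDF3 and 9.67 ± 0.649 for YTHDC2 (SD, n = 3). Coverage gave another order. Mean coverage was 442, 376 and 336 in replicates 1, 2 and 3 for YTHDF1 and 378, 346 and 311 for YTHDF2. It was 169, 144 and 125 for YTHDF3, 129, 129 and 119 for YTHDC1 and 104, 94.5 and 79.8 for YTHDC2. YTHDC1 was thus below YTHDF3 by coverage in 3 of 3 libraries, whereas it was above it by TPM in 2 of 3. Their mean log2 coverage ratio was -0.21 ± 0.17 (SD, n = 3). The other 9 pairs kept their direction. The nuclear reader also lay further below the YTHDF mean by coverage, and that log2 ratio averaged -1.09 ± 0.13 (SD, n = 3).

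The shift can be read from the ratio of coverage to FPKM, relative to the highest ratio in the library. This relative ratio was 0.966 for YTHDF1, 0.936 for YTHDF2, 0.765 for YTHDC2, 0.688 for YTHDF3 and 0.523 for YTHDC1 as a mean over the 3 libraries. Over the 11965 genes above 1 FPKM in every library, its median was 0.789 and its quartiles were 0.439 and 0.979. For the YTHDF genes it was nearly constant, with an SD of at most 0.000579. For YTHDC1 it was 0.531 in replicate 1 and 0.519 in both others. RefSeq lists 1 curated transcript of YTHDF1, 3 of YTHDF2, YTHDC1 and YTHDC2, and 8 of YTHDF3, and GENCODE v44 lists 2, 9, 7, 7 and 16 in the same order. The MANE transcripts are 3198 nt for YTHDF1, 2744 nt for YTHDF2, 5095 nt for YTHDF3, 6233 nt for YTHDC1 and 6305 nt for YTHDC2. The tables give 1 value per gene, so the part of single transcripts in the shift was not tested.

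**Figure D2:**
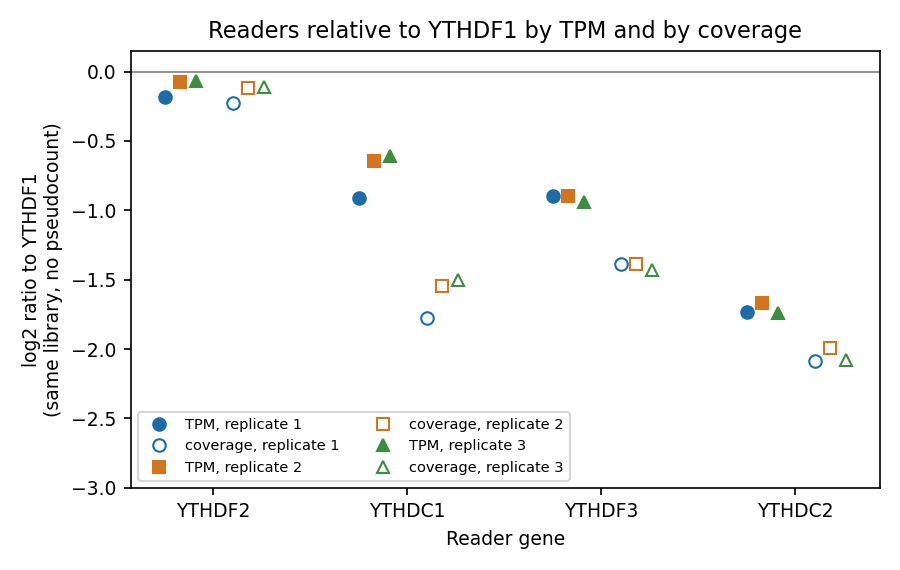
Log2 ratio (vertical axis, no pseudocount) of YTHDF2, YTHDC1, YTHDF3 and YTHDC2 to YTHDF1 in the same library, by TPM (filled) and by coverage (open), with 1 symbol per library. YTHDC1 moves furthest between both measures and falls below YTHDF3 by coverage.

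The spread of the readers was set against that of all genes. Among 8419 genes averaging 10 TPM or more, log2(TPM + 1) ranged over more than 1 unit between replicates in 0.273%, and in 0 of 5 readers. The range was 0.24 for YTHDF3, 0.20 for YTHDF1 and YTHDC2, 0.10 for YTHDC1 and 0.09 for YTHDF2, with a median of 0.13 over these genes. The range of YTHDF3 exceeded that of 88.1% of them. As coefficients of variation of TPM, YTHDF3 had 9.47%, YTHDF1 8.28%, YTHDC2 7.51%, YTHDF2 3.75% and YTHDC1 3.58%, against a median of 4.88%.

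YTHDF1, YTHDF2, YTHDF3 and YTHDC2, or 4 of 5 readers, were highest in replicate 1, as were 62.5% of the 8419 genes. This comparison was chosen after the values were seen. In replicate 1, TPM exceeded the mean of the other two libraries by 0.23 for YTHDF3, 0.20 for YTHDF1, 0.18 for YTHDC2 and 0.09 for YTHDF2 on the log2 scale, against a median of 0.07 over all these genes, while YTHDC1 was lower there (-0.08). Replicate 1 also had the highest coverage per FPKM, and the part of depth in this pattern was not tested.

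**Figure D3:**
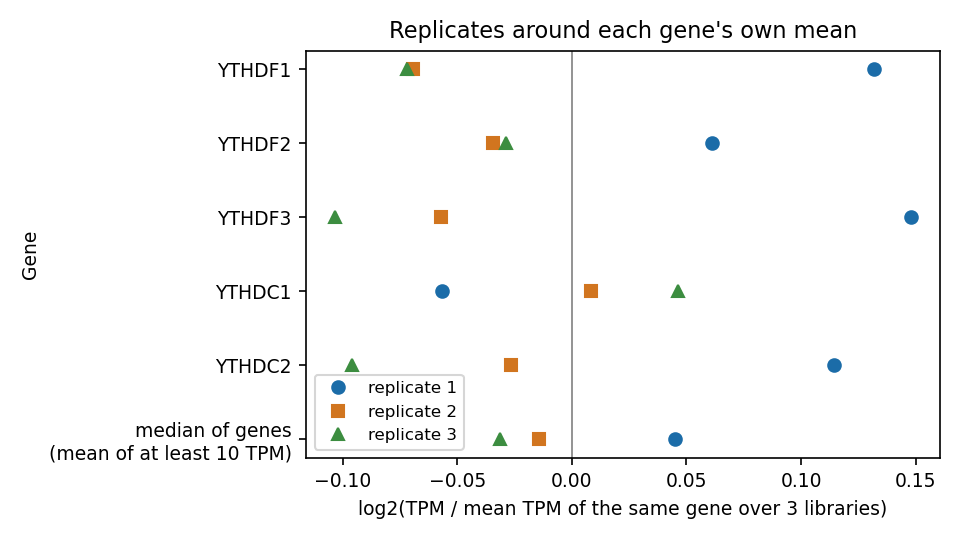
Log2 of TPM over the same gene's mean TPM (horizontal axis) in each library, for the 5 readers and for the median of the 8419 genes averaging 10 TPM or more; each symbol is 1 library. Replicate 1 lies above 0 for 4 readers and for the median gene, and below 0 for YTHDC1.

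The genes most like each reader were named by the smallest Euclidean distance of log2(TPM + 1) over the 3 libraries. They were NOL11 (distance 0.012) and SON (0.031) for YTHDF1, POFUT1 (0.018) and CDCA5 (0.027) for YTHDF2, and NIPBL (0.0099) and TNKS2 (0.0099) for YTHDF3. For YTHDC2 they were TXNIP (0.015) and OIP5-AS1 (0.024), and PSENEN (0.034) was nearest to YTHDC1. With 3 libraries of 1 condition, this measure describes a like level and nothing more.

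The readers were placed beside the genes that write, erase or act on m6A. Of 9 writers, 8 reached 10 TPM in each library and METTL14 was the exception, with a mean of 5.80 TPM. For this count and those of the lists below, the share over the 13753 genes averaging 1 TPM or more was 59.2%. The median writer had 22.1 TPM. By mean, the 3 YTHDF readers and YTHDC1 were above METTL3, which had 32.0 TPM. For YTHDF3 the margin was small, and its range (33.0 to 39.2 TPM) overlapped that of METTL3 (31.1 to 33.6 TPM). No writer reached YTHDF1. The highest was WTAP, the adaptor that holds the complex in nuclear speckles, with a mean of 55.8 TPM. Of the erasers, ALKBH5 had a mean of 50.5 TPM and FTO had 5.66 TPM. ALKBH5 thus lay between YTHDF2 and YTHDC1, and FTO lay below every reader.

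A further list held 8 genes of proteins linked to m6A-marked RNA, whether or not they bind the mark itself. All 8 reached 10 TPM in each library, and 4 of them were above YTHDF1. HNRNPA2B1, HNRNPC and RBMX, abundant nuclear RNA-binding proteins, had means of 1094, 433 and 330 TPM, far above any YTH reader. Of the insulin-like growth factor 2 mRNA-binding proteins, IGF2BP3 had 52.5 ± 2.62 TPM, IGF2BP1 16.2 ± 1.52 TPM and IGF2BP2 14.0 ± 0.347 TPM (SD, n = 3). IGF2BP3 lay between YTHDC1 and YTHDF2, and the other two lay below YTHDC2.

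The decay machinery that YTHDF2 recruits spanned a wider range than the readers, but its list holds more genes, which alone can widen a span. Means ran from 5.29 to 71.6 TPM for the CCR4-NOT genes, with 3 of them below YTHDC2. Of 11 CCR4-NOT genes, 10 reached 10 TPM in each library, with a median of 32.3 TPM. CNOT1, the scaffold that YTHDF2 binds, had 71.6 ± 6.15 TPM (SD, n = 3) and was the only one above the mean of YTHDF1. The deadenylase CNOT7 had 37.5 TPM and its paralog CNOT8 31.8 TPM, whereas CNOT6L, another deadenylase, had a mean of 5.29 TPM. On the RNase P/MRP route, by which YTHDF2 targets can be cut within the transcript, 11 of 12 genes reached 10 TPM in each library. Their means ran from 10.1 to 120 TPM, with 3 below YTHDC2. RIDA, the adaptor to that route, had 38.1 ± 1.69 TPM (SD, n = 3).

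Partners of YTHDC1 were above it. SRSF3 and SRSF10, splicing factors that YTHDC1 binds, had means of 167 and 71.3 TPM and NXF1, the mRNA export receptor, had 60.3 TPM, against 40.3 TPM for YTHDC1. Partners of YTHDC2 were below it. The exonuclease XRN1 had 11.7 ± 0.895 TPM (SD, n = 3), MEIOC, a meiotic cofactor, was below 1 TPM in every library, and RBM46, another germ cell cofactor, was listed at 0 in all 3.

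**Figure D4:**
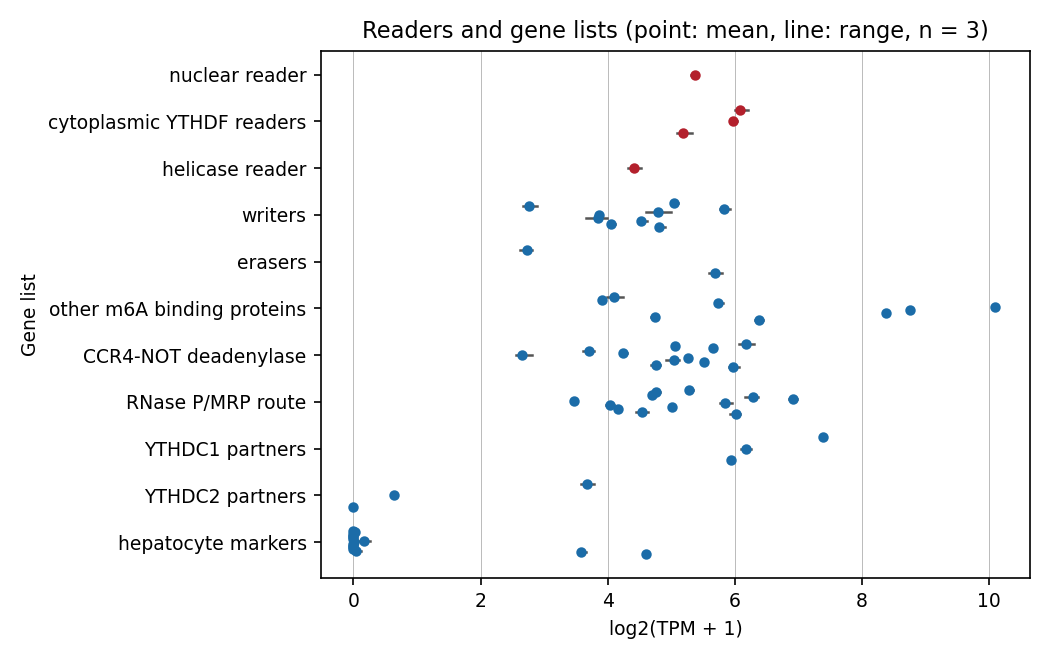
Log2(TPM + 1) (horizontal axis) of the 5 readers (red) and of the genes on each list (blue); each point is the mean of 3 libraries and the line behind it spans their range. The readers, from 20.3 to 66.6 TPM, lie within the span of the CCR4-NOT genes, from 5.29 to 71.6 TPM, and 13 of 15 hepatocyte markers lie near 0.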

How the data were processed

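RNA-seq of 3 libraries, 1 group by the labels, was used. Per the labels and the study's methods, the authors filtered 150-base paired-end reads with FastQC 0.11.8 and Trim Galore 0.6.2 and mapped them to GRCh38 with STAR 2.6.1a, and the submitters' processing notes also name StringTie. The authors deposited coverage, a signal of mean read depth without scaling for library size. FPKM and TPM were also computed and deposited by the authors, and all TPM of a library sum to the same total.

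Rows of equal identity, strand and coordinates in each table were joined (43389 rows, 6 left out), and 39320 on the main chromosome sequences were used (references with no extension after the chromosome's name). TPM was used as deposited, with a pseudocount of 1 on the log2 scale. Within-library ratios were tested by two-sided exact sign-flip permutation over 3 libraries. Genes were counted as expressed at a mean of at least 1 TPM, and variation was measured at a mean of at least 10 TPM.

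The named genes were the readers, other rows whose name begins with YTHD, adjacent rows, the lists, and the 2 nearest genes of each reader by level, of which the second for YTHDC1 is not reported here. Members and lists were chosen with earlier results of these data known. Of the adjacent rows, the one beside YTHDF3 is reported. MANE transcripts of GENCODE v44 were translated, aligned with BLOSUM62 in Biopython 1.88, and their windows searched on both strands in 252835 transcripts. The measure of variation was run on simulated data with small noise and with changes well above the limit of 1 log2 unit. It recovered 200 of 200 changed genes and called 0 unchanged genes among 8421 tested, an outcome that these settings largely fixed. Recovery at the spread of these libraries, or of changes near the limit of 1 log2 unit, was not tested. Python 3.11.15, numpy 2.4.6, pandas 2.3.3, scipy 1.17.1 and matplotlib 3.10.9 were used.

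Alternatives included other pseudocounts, sets without 1 replicate, FPKM or coverage in place of TPM, other scalings, other limits on low TPM, and other placements of YTHDC2.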

Additional observations from a re-analysis of the deposited data

How the results depend on the processing

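No paired analysis was possible because a single group was sequenced, so that samples could not be paired between groups, and readers were compared within each library. Unknown depth limits every row listed at 0. By coverage in place of TPM, the log2 ratio of YTHDC1 to YTHDF3 reversed from 0.18 to -0.21. The cause was not tested. In the other 9 pairs the same reader was higher in every library. Leaving out a replicate or changing the pseudocount could therefore not turn their sign. Coverage could have turned it, and the mean log2 ratios of these 9 pairs kept their sign. By coverage the ratio to YTHDC1 rose from 0.71 to 1.61 for YTHDF1 and from 0.60 to 1.45 for YTHDF2. The ratio to YTHDF3 rose from 0.89 to 1.40 for YTHDF1 and from 0.79 to 1.25 for YTHDF2. That of YTHDC1 to YTHDC2 fell from 0.96 to 0.44. The log2 ratio of nuclear to cytoplasmic readers ranged from -0.43 to -0.29 when each replicate was left out and was -1.99 with the YTHDF genes summed. By FPKM it was -0.37, which differs from TPM only through the weight of the pseudocount. It was -1.09 by coverage, -0.85 with YTHDC2 as nuclear and -0.04 with YTHDC2 as cytoplasmic, where its sign turned in replicates 2 and 3. Scaling without mitochondrially encoded genes raised the mean TPM to 83.3 for YTHDF1, 77.2 for YTHDF2, 44.3 for YTHDF3, 50.4 for YTHDC1 and 25.4 for YTHDC2, and recomputing the mitochondrial tRNA gene TRNC from its coverage gave 80.0, 74.2, 42.6, 48.4 and 24.4 TPM. The former removes all mitochondrial rows and the latter lowers TRNC alone, so by construction the TPM of all other rows rises. By coverage, the shares of the readers were 35.1% for YTHDF1, 31.6% for YTHDF2, 13.3% for YTHDF3, 11.5% for YTHDC1 and 8.48% for YTHDC2. With a limit of 0.1 TPM, the readers exceeded 87.8%, 87.0%, 78.7%, 80.9% and 68.6% of genes in the same order, and with no limit 94.2%, 93.8%, 89.9%, 90.9% and 85.1%, since more low genes entered the ranking. By coverage the percentile was 87.6 for YTHDF1, 86.2 for YTHDF2, 72.0 for YTHDF3, 69.1 for YTHDC1 and 62.5 for YTHDC2. The number of genes with a range above 1 was 23. It ranged from 10 to 16 when each replicate was left out, lowest without replicate 2, and was 15 without replicate 1. It was 173 with a limit of 1 TPM, and 0 readers were among them under any of these settings. For the readers this was fixed in advance. A range over fewer libraries cannot be wider, and the limit on TPM does not alter a reader's own range.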
